A study of Mus musculus with 10 samples.

Results

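Foxp3, the 5 Ikaros family zinc finger genes Ikzf1 to Ikzf5, and the Treg surface receptor genes Nrp1 and Izumo1r were examined in regulatory T cells (Tregs) sorted from mouse colon. These 8 genes, of 54532 in the deposited table, were taken by name, and each name matched 1 row. All 8 passed the low-count filter that left 21414 genes. The Tumor group held 5 libraries of Tregs from colon tumours of Apc Min/+ mice that also carried Foxp3 DTR. The WT group held 5 libraries of Tregs from the colon of Foxp3 DTR mice, whose genotype label reads WT. All 10 samples were labelled male, C57BL/6 and 16 weeks of age, and the gate was CD45+CD3+CD4+CD25+GFP+. Apc Min/+ is a germline truncating allele of an inhibitor of Wnt signalling, so mice that carry it have it in every cell. Foxp3 DTR places a diphtheria toxin receptor under the control of Foxp3. The labels do not say which gene carried the GFP of the gate, whether animals were pooled, or whether each sample was a separate animal, and the p-values below therefore reflect only the sample-to-sample spread, which may be technical. The question addressed here is whether transcripts of Treg-defining factors and receptors differ in level between Tregs of tumours and of colon without the Apc allele.

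Foxp3 is a forkhead transcription factor that is required for Treg development and suppressive function. Ikaros family proteins bind DNA through zinc fingers near the N-terminus and pair with each other through zinc fingers at the C-terminus, and they recruit chromatin remodelling and corepressor complexes. Helios (Ikzf2) and Eos (Ikzf4) are enriched in Tregs, Eos acts as a corepressor partner of Foxp3, and Helios with neuropilin-1 (Nrp1) is widely used to mark Tregs of thymic origin. Izumo1r encodes the surface protein known in T cells as folate receptor 4, which is high on Tregs and is also the egg receptor Juno.

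Foxp3 lies on chromosome X (ENSMUSG00000039521, mm10, 7579676 to 7595243, + strand), and the window before its start is shown because this gene defines the lineage. RefSeq lists 2 starts for Foxp3. The 250 bases upstream of the first (GRCm38.p6, + strand, chrX:7579426-7579675) are all exonic in GENCODE M21. They lie within the span of the noncoding RNA Flicr, but the exons were not separated by gene. Capitals mark the core letters of NFAT sites (GGAAA, here TTTCC on the opposite strand) and the TATA box letters TATAAA. A window of Ikzf1 is set beside it, as the window with the most Ikaros core letters among those of Ikaros family genes in the table. It holds the 250 bases upstream of the second RefSeq start (GRCm38.p6, + strand, chr11:11689927-11690176), where capitals mark the Ikaros core letters GGGAA, here TTCCC on the opposite strand.
Foxp3: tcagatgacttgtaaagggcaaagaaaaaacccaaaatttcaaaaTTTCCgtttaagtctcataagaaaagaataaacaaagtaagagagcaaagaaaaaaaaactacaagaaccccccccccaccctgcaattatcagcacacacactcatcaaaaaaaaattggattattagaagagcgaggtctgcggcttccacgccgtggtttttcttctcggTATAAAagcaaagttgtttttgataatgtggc
Ikzf1: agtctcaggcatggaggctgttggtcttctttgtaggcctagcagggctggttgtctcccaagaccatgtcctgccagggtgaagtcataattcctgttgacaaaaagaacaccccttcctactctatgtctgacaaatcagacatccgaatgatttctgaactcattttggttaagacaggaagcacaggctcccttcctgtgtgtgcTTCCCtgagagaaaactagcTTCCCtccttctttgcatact
The Foxp3 window shown held 1 GGAAA match, 1 TATAAA match and 0 matches to GGGAA, to the forkhead letters TGTTTAC or to the Runx core TGTGGT, each searched on both strands. The window of the other Foxp3 start (chrX:7580233-7580482), not shown, held 1 GGAAA match and 0 matches to the other 4 motifs. The Ikzf1 window held 2 matches to GGGAA and 0 to the other 4 motifs. GGGAA and GGAAA can overlap in a run of GGGAAA. Of 32851 RefSeq promoter windows of the same length, 56.2% held GGGAA, 55.6% GGAAA, 12.4% TATAAA, 14.05% TGTGGT and 3.17% TGTTTAC. Of the 8 genes, 5 had an entry in the RefSeq table. The matches describe letters only.

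Library depth was 3054435 to 7747699 counts for Tumor, against 1676229 to 8412887 counts for WT. T cell genes were present in both groups, with none of 14 pan-T genes at 0 throughout a group, but their geometric mean per library was 219 to 387 CPM (read counts scaled to the library total) in Tumor and 11.1 to 101 CPM in WT, with no overlap. The CPM of 16 epithelial genes summed to 46.2 to 5591 per Tumor library, whereas in WT they summed to 23662 and 33670 for replicates 1 and 2 and to 157 to 267 for the other 3. The gene model Gm10800 took 0.844 to 5.77% of all counts in Tumor, whereas it took 9.92 to 26.5% in WT replicates 3 to 5 and 3.19 and 0.931% in WT replicates 1 and 2. In bulk samples, fewer cells of a type and less RNA per cell cannot be told apart. Unless stated otherwise, CPM below are scaled by the trimmed mean of M values (TMM). Fold changes of the 8 genes and the counts of each list are also given with libraries scaled to their pan-T genes.

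Of the 8 genes, 1 was called higher in Tumor and 0 lower (edgeR, with p adjusted over all 21414 genes by Benjamini-Hochberg and called below 0.05), where 1.37% of all tested genes were called higher and 0.219% lower. The called gene was Ikzf4. The log2 fold changes of the 8 ran from 0.49 for Ikzf5 to 2.48 for Foxp3, with a median of 1.88, against a median of -0.20 over all tested genes and 2.83 over the 14 pan-T genes. In 3 of the 8, Ikzf4, Nrp1 and Izumo1r, the lowest Tumor library exceeded the highest WT library, which held for 4.38% of all tested genes. An unadjusted p below 0.05 was reached by 6 of the 8, all higher in Tumor, against 7.75% of all tested genes.

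**Figure D1:**
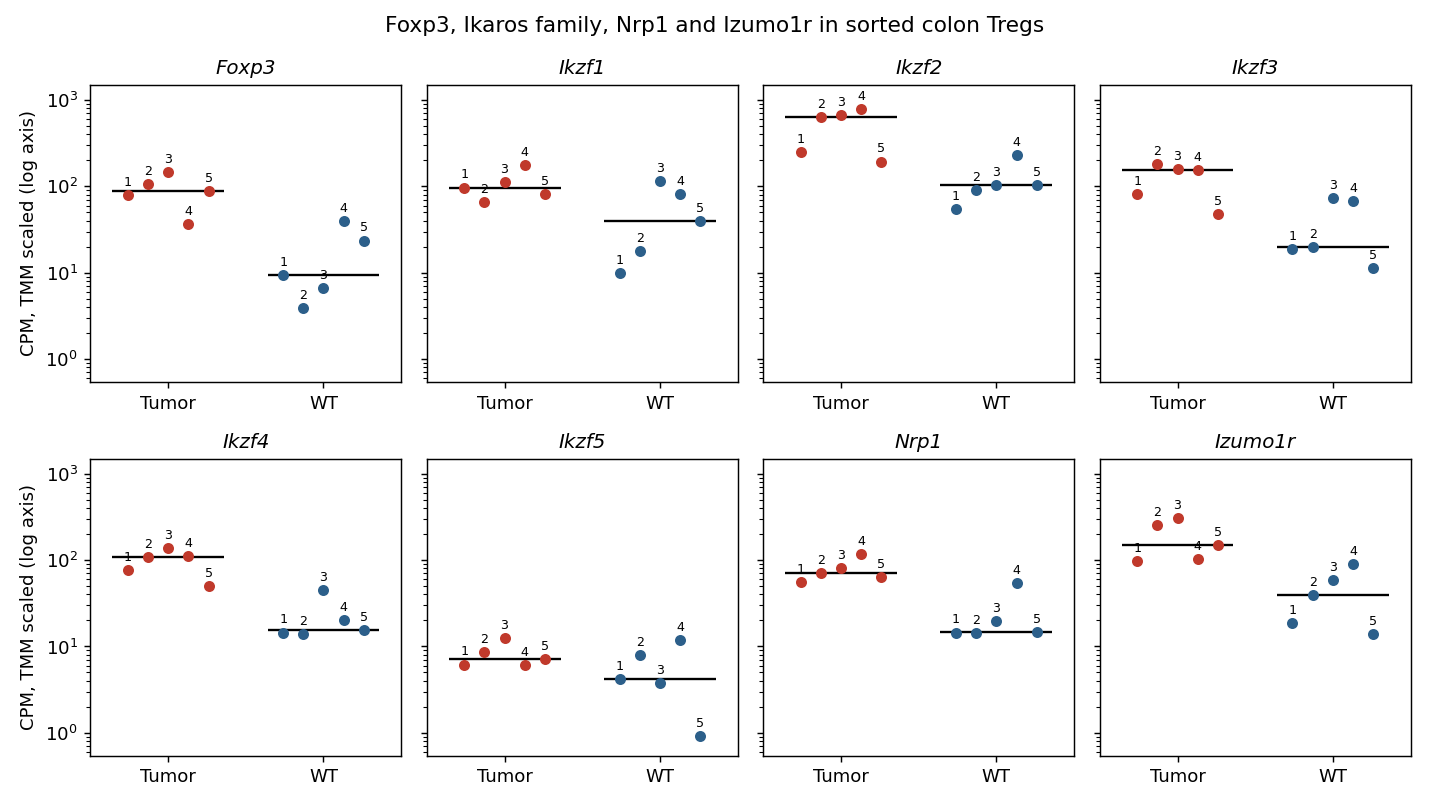
TMM-scaled CPM (log axis) of the 8 genes in each library, with Tumor at the left and WT at the right of each panel. Numbers are replicate numbers and lines are group medians; Ikzf4, Nrp1 and Izumo1r are the panels with no overlap between groups.

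Foxp3, the factor that defines the lineage, was measured at 80.1, 107, 148, 36.9 and 88.8 CPM in Tumor replicates 1 to 5 and at 9.36, 3.87, 6.57, 39.7 and 23.6 CPM in WT replicates 1 to 5. The groups overlapped by 1 pair of libraries: Tumor replicate 4, the lowest of its group, lay just below WT replicate 4, the highest of its group. Reads on the gene numbered 208 to 910 in Tumor and 14 to 109 in WT, with 14 in WT replicate 3, so several WT values rest on few reads. The means were 92.2 ± 40.4 CPM in Tumor and 16.6 ± 15.0 CPM in WT (SD, n = 5 each). The log2 fold change of Foxp3 was 2.48 ± 0.64 (SE) and did not pass (edgeR adjusted p = 0.0560). It passed with DESeq2 (2.27 ± 0.67, adjusted p = 0.0164), limma voom (3.06 ± 0.66, adjusted p = 0.0165), voom with quality weights (2.49 ± 0.64, adjusted p = 0.0344) and edgeR with no low-count filter (2.67 ± 0.67, adjusted p = 0.0126). In edgeR it did not pass with RLE factors (adjusted p = 0.0896), upper-quartile factors (0.115), no composition factors (0.114) or 10 CPM in 5 libraries (0.103). Nor did it pass with replicate number as a block (edgeR adjusted p = 0.124) or protein coding genes alone (0.0598). With the edgeR test and filter, Foxp3 passed in 1 of the 10 fits without a single library. That was the fit without WT replicate 4 (3.12 ± 0.67, adjusted p = 0.0229), and the adjusted p of the 10 reached 0.176. Foxp3 had an adjusted p of 0.0549 without WT replicates 1 and 2, the libraries with most epithelial RNA (1.99 ± 0.64). Without WT replicates 3, 4 and 5 it was called at 3.85 ± 0.65 (adjusted p = 0.000243). Foxp3 shares exons with its neighbours. In GENCODE M21, 31.5% of its exonic bases are also exonic in Flicr, Ccdc22, Ppp1r3f or Gm36995, although the deposited Foxp3 coordinates differ from M21. How reads in shared exons were counted is not given in the sources used here. Flicr, which is known to dampen Foxp3 expression in mouse Tregs, was counted at 5 to 54 reads in the Tumor libraries and at 2 to 22 reads in those of WT.

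Ikzf4, which encodes Eos (ENSMUSG00000002578, chromosome 10, 128630843 to 128645991), was measured at 76.7, 110, 138, 112 and 50.5 CPM in Tumor replicates 1 to 5. In WT replicates 1 to 5 it was at 14.5, 13.96, 44.6, 20.4 and 15.4 CPM. The WT values sat close together except for replicate 3, which lay just under the lowest Tumor library. Ikzf4 averaged 97.5 ± 34.1 CPM in Tumor and 21.8 ± 13.0 CPM in WT (SD, n = 5 each). It rose by 2.17 ± 0.52 log2 units (SE, edgeR adjusted p = 0.0417). The call held in 1 of the 10 fits that left out a single library, the one without WT replicate 3 (2.63 ± 0.52, adjusted p = 0.0207). In the 10 fits the adjusted p ran from 0.0207 to 0.147 and the log2 fold change from 2.01 to 2.63. Ikzf4 was also called without WT replicates 1 and 2 (1.89 ± 0.58, adjusted p = 0.0451) and without WT replicates 3, 4 and 5 (2.78 ± 0.57, adjusted p = 0.00191).

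Ikzf2, which encodes Helios (ENSMUSG00000025997, chromosome 1, 69531214 to 69687245), carried the most reads of the 8 genes. It was measured at 253, 642, 668, 786 and 194 CPM in Tumor replicates 1 to 5 and at 55.0, 90.8, 102, 228 and 103 CPM in WT replicates 1 to 5. Tumor replicates 2 to 4 formed a high set, and Tumor replicate 5 lay below WT replicate 4. Ikzf2 had a log2 fold change of 2.13 ± 0.67 (SE) that did not pass (edgeR adjusted p = 0.127). Ikzf2 and Foxp3 did not follow each other across the Tumor libraries: replicate 4 was the highest of its group for Ikzf2 and the lowest for Foxp3. Per base of gene length, Ikzf2 reads stood at 7.31 per Foxp3 read in Tumor replicate 4 and 0.750 to 2.06 in the other 4 Tumor libraries, against 1.51 to 8.06 in WT.

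Ikzf1 and Ikzf3 encode Ikaros and Aiolos, the members used widely in lymphocytes. Ikzf1 (ENSMUSG00000018654, chromosome 11, 11685003 to 11772926) was measured at 96.9, 65.1, 112, 177 and 82.4 CPM in Tumor replicates 1 to 5 and at 9.83, 17.7, 115, 81.9 and 39.5 CPM in WT replicates 1 to 5. The WT values thus spanned 11.7-fold, and WT replicate 3 lay above all Tumor libraries but replicate 4. The log2 fold change of Ikzf1 was 1.02 ± 0.62 (SE, edgeR adjusted p = 0.425). Ikzf1 and Ikzf3 are also used by B cells, and 8 B and plasma cell genes summed to 35.0 to 331 CPM in Tumor, against 3692 CPM in WT replicate 3 and 140 to 374 CPM in the other WT libraries. None of these 8 genes was at 0 throughout a group, and 0 of the 6 tested were called (edgeR, adjusted p below 0.05; 0 at an unadjusted p below 0.05). Their part in the result was not tested; without WT replicate 3 the value for Ikzf1 was 1.56 ± 0.62 (adjusted p = 0.260).

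Ikzf3 (ENSMUSG00000018168, chromosome 11, 98464902 to 98546031) was measured at 82.3, 181, 161, 156 and 47.7 CPM in Tumor replicates 1 to 5 and at 18.7, 19.6, 73.2, 68.1 and 11.3 CPM in WT replicates 1 to 5. Tumor replicate 5 lay below WT replicates 3 and 4, and the other 4 Tumor libraries lay above all WT libraries. Its log2 fold change was 1.72 ± 0.62 (SE, edgeR adjusted p = 0.182), and 2.12 ± 0.65 (adjusted p = 0.125) without WT replicate 3.

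Ikzf5, which encodes Pegasus (ENSMUSG00000040167, chromosome 7, 131388652 to 131410521), had the fewest reads, with 21 to 78 in the Tumor libraries and 2 to 57 in those of WT. It stood at 6.03 to 12.7 CPM in Tumor (median 7.11) and 0.907 to 12.01 CPM in WT (median 4.21), and the groups overlapped widely. The log2 fold change of 0.49 ± 0.84 (SE) did not pass (edgeR adjusted p = 0.801). Of its exonic bases, 84.5% are also exonic in another gene, 81.3% in Pstk on the opposite strand. Its count is therefore uncertain, which limits all results for Ikzf5, including those on pan-T scaling below. For Ikzf1 to Ikzf4 the share of bases also exonic in another gene was at most 1.24%.

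Nrp1, a co-receptor for semaphorins and VEGF (ENSMUSG00000025810, chromosome 8, 128358604 to 128503363), was measured at 56.2, 70.0, 80.0, 117 and 63.6 CPM in Tumor replicates 1 to 5. In WT replicates 1 to 5 it was at 14.5, 14.2, 19.7, 53.9 and 14.5 CPM. WT replicate 4 lay just below the lowest Tumor library, while the other 4 WT libraries lay close together and far below. Nrp1 averaged 77.4 ± 23.9 CPM in Tumor and 23.4 ± 17.2 CPM in WT (SD, n = 5 each), a log2 fold change of 1.73 ± 0.53 (SE) that did not pass (edgeR adjusted p = 0.112). It passed in 1 of the 10 fits without a single library, the one without WT replicate 4 (2.32 ± 0.52, edgeR adjusted p = 0.0289). In the 10 fits the adjusted p ran from 0.0289 to 0.271. Nrp1 is also used by macrophages and endothelium. Summed CPM of 12 macrophage and monocyte genes were 1344 to 6153 in Tumor and 66.1 to 172 in WT, with 6 of 11 tested called higher and none at 0 throughout a group. Summed CPM of 8 endothelial genes were 70.7 to 185 in Tumor and 70.4 to 296 in WT, with 0 of 8 called (edgeR, adjusted p below 0.05; 1 at an unadjusted p below 0.05). The part of these genes in the Nrp1 result was not tested.

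Izumo1r (ENSMUSG00000031933, chromosome 9, 14885814 to 14903949) was measured at 98.3, 256, 305, 104 and 149 CPM in Tumor replicates 1 to 5 and at 18.7, 39.8, 59.2, 90.3 and 14.1 CPM in WT replicates 1 to 5. Every Tumor library lay above WT replicate 4, the highest of its group, Tumor replicates 1 and 4 only narrowly. Its means were 182 ± 93.2 CPM in Tumor and 44.4 ± 31.3 CPM in WT (SD, n = 5 each). The log2 fold change of 2.04 ± 0.63 (SE) did not pass (edgeR adjusted p = 0.117) and passed in 0 of the 10 fits without a single library (adjusted p = 0.0701 to 0.299).

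Which WT libraries served as comparison moved the counts. Against WT replicates 1 and 2 alone, 7 of the 8 genes were called higher, all but Ikzf5, where 2.32% of 30040 tested genes were (edgeR adjusted p below 0.05). Their log2 fold changes there ran from 2.43 for Nrp1 to 3.85 for Foxp3. Against WT replicates 3, 4 and 5 alone, 1 of the 8 was called higher, again Ikzf4, where 6.40% of 25230 tested genes were. The epithelial and Gm10800 levels given above differed between these 2 sets of WT libraries. The pan-T level overlapped, at 11.1 and 31.8 CPM in WT replicates 1 and 2 and 29.6 to 101 CPM in WT replicates 3 to 5. The part of these levels in the counts was not tested. DESeq2 called 4 of the 8 higher, Foxp3, Ikzf2, Ikzf4 and Izumo1r, where 3.59% of its tested genes were called higher and 5.10% lower.

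**Figure D2:**
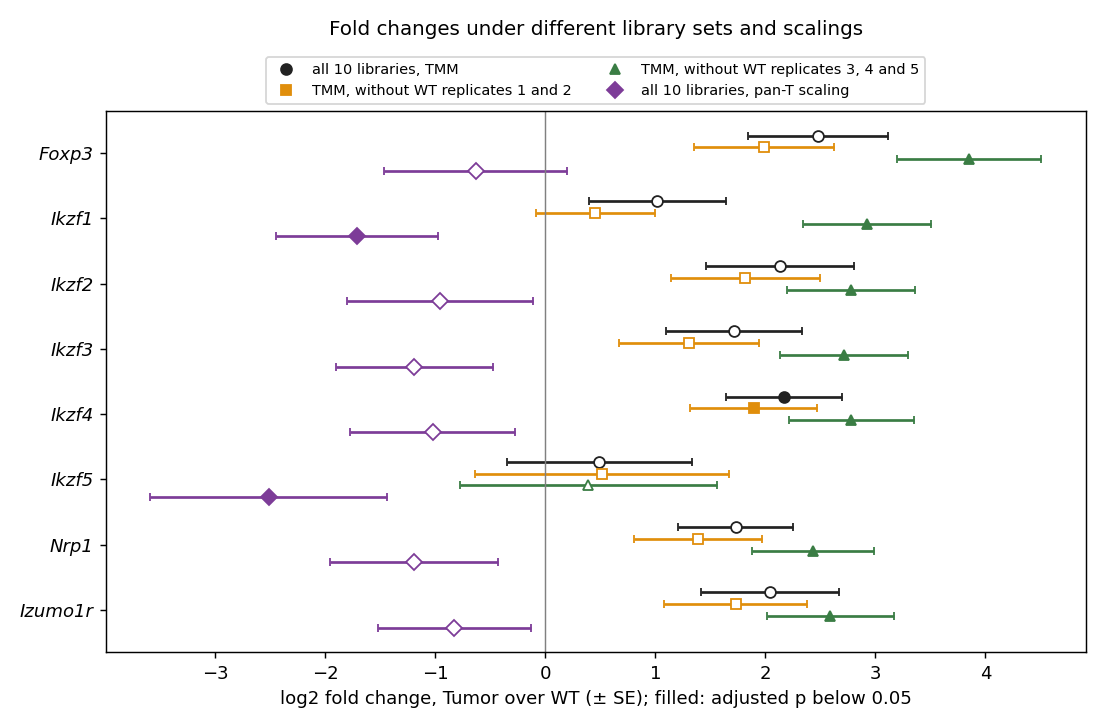
Log2 fold changes of the 8 genes, Tumor over WT, with standard errors, from edgeR fits with different libraries and scalings. Filled symbols have an adjusted p below 0.05; values lie right of 0 on TMM scaling and left of 0 on pan-T scaling for all 8 genes.

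Set against the T cell genes of the same library, none of the 8 was called higher in Tumor. With libraries scaled to the 14 pan-T genes, 0 of the 8 were called higher and 2 lower, Ikzf1 (-1.71 ± 0.74 log2 units, SE, edgeR adjusted p = 0.0328) and Ikzf5 (-2.51 ± 1.08, adjusted p = 0.0316). On this scaling Ikzf1 was no longer called without WT replicates 3, 4 and 5 (-0.72 ± 0.69, adjusted p = 0.321), and Ikzf5 was no longer called without WT replicates 1 and 2 (-1.61 ± 1.02, adjusted p = 0.177). With this scaling 88.4% of all tested genes were called lower and 0.103% higher, and the median of all genes was -3.48, so the share of the 8 called lower was below that of all genes. The remaining 6 had values from -0.63 ± 0.83 for Foxp3 (adjusted p = 0.458) to -1.20 ± 0.76 for Nrp1 (adjusted p = 0.133), and the median of the 8 was -1.11. Ikzf4, which rose on TMM, stood at -1.02 ± 0.75 (adjusted p = 0.188). All 8 TMM values lay below 2.83, the median of the pan-T genes, and all 8 were negative with those genes as the reference. The median of all genes moved from -0.20 on TMM to -3.48 on pan-T scaling. The signs of the 8 thus differed by scaling, and a negative value was not particular to them. Which scaling is nearer to the level per cell was not tested.

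As a share of the pan-T geometric mean of its library, Foxp3 was at 26.7, 29.7, 30.4, 12 and 44.3% in Tumor replicates 1 to 5 and at 63.1, 10.5, 11.5, 40.1 and 101% in WT replicates 1 to 5. The Tumor values lay within the range of the WT values, in which replicates 2 and 3 were as low as Tumor replicate 4 and replicate 5 was the highest of all 10. Ikzf4 was at 25.2 to 36.5% in Tumor (median 28.4) and 20.6 to 97.8% in WT (median 66.1), and Izumo1r was at 32.7 to 74.2% in Tumor (median 62.6) and 60.2 to 126% in WT (median 104). Ikzf2 ranged over 84.1 to 255% in Tumor (median 137) and 180 to 443% in WT (median 246). In Nrp1 the shares were 16.5 to 38.1% in Tumor (median 19.4) and 34.6 to 97.8% in WT (median 54.4). Ikzf1 and Ikzf3 had medians of 32.3 and 33.0% in Tumor and 82.7 and 68.7% in WT, with overlap. Ikzf5, at 1.96 to 3.54% in Tumor and 3.89 to 28.4% in WT, was the 1 gene of the 8 without overlap, lower in Tumor, as were 37.7% of all tested genes on this measure, while 0.159% were apart and higher.

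**Figure D3:**
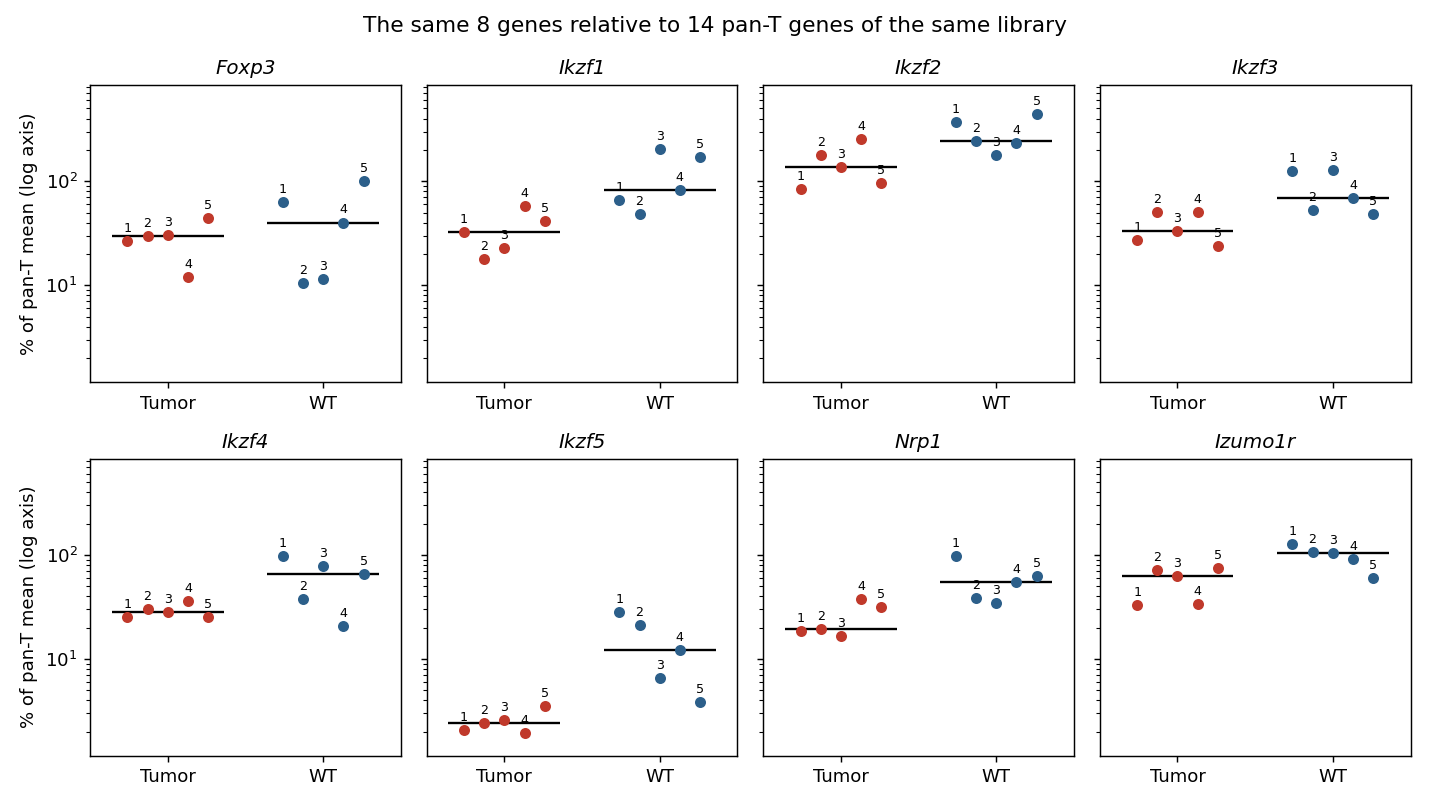
Level of each gene as a percentage of the geometric mean of 14 pan-T genes in the same library (log axis), with Tumor at the left and WT at the right of each panel. Numbers are replicate numbers and lines are group medians; the Tumor medians lie below the WT medians in all 8 panels.

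Per kilobase of gene length, which allows genes to be compared, the order of mean levels was Izumo1r, Ikzf2, Foxp3, Ikzf1, Ikzf4, Ikzf3, Nrp1 and Ikzf5 in Tumor. In WT it was Izumo1r, Ikzf2, Ikzf1, Ikzf3, Foxp3, Ikzf4, Nrp1 and Ikzf5. Izumo1r led with 78.6 ± 40.2 CPM per kilobase in Tumor and 19.1 ± 13.5 in WT, and Ikzf2 followed with 43.8 ± 23.0 in Tumor and 9.98 ± 5.66 in WT (SD, n = 5 each). Foxp3 itself was at 23.1 ± 10.1 CPM per kilobase in Tumor and 4.16 ± 3.75 in WT, subject to the shared exons described above. Ikzf5 was last with 1.42 ± 0.48 in Tumor and 1.01 ± 0.75 in WT. Its place is uncertain, because 84.5% of the exonic bases in its length are shared with other genes. Most neighbours in these orders were not separated by their spread: in Tumor the ranges were apart for 1 neighbouring pair, Nrp1 over Ikzf5, and in WT they overlapped for all 7 pairs. Izumo1r exceeded Ikzf2 within 4 of 5 libraries of each group.

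**Figure D4:**
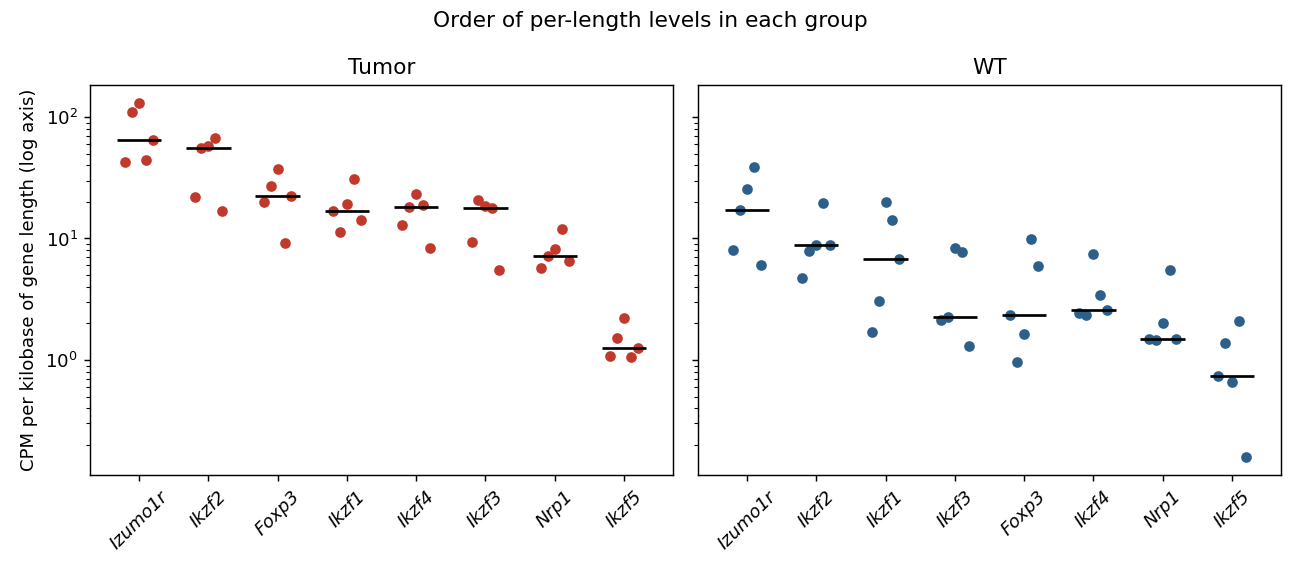
CPM per kilobase of gene length (log axis) of each gene in the 5 Tumor libraries (left) and the 5 WT libraries (right), ordered by mean level. Points are libraries and lines are medians. Izumo1r and Ikzf2 stand first and Ikzf5 last in both groups, with Ikzf5 subject to its shared exons.

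Profiles over the 10 libraries were compared as log2 CPM centred on each gene's mean, and the root mean square difference between profiles served as the measure of likeness, with small values for like profiles. Among the 8 genes the closest pair was Ikzf2 and Nrp1 (0.49 log2 units), then Ikzf3 and Ikzf4 (0.55). Foxp3 had the largest distance to its nearest gene, Nrp1 at 0.999, and its farthest was Ikzf5 at 1.56. Ikzf5 came next, with Izumo1r nearest at 0.890. Both genes had low read numbers in WT, and the part of these in the distances was not tested. Among 12203 other protein coding genes with at least 10 CPM on average, the profiles nearest to Foxp3 were those of Spn (the sialoglycoprotein CD43, 0.48), Sytl3 (a synaptotagmin-like protein, 0.48), Il18rap (a subunit of the IL-18 receptor, 0.49), Snx20 (a sorting nexin, 0.55) and Kcnab2 (a potassium channel subunit, 0.57), where the median gene differed by 1.94. Nearest to Ikzf2 were Ppp1r16b (a regulator of protein phosphatase 1, 0.32), Fam169b (0.36), Inpp4b (a phosphoinositide phosphatase, 0.36), Btg1 (an antiproliferative factor, 0.36) and Zfp281 (a zinc finger factor, 0.38). Nearest to Ikzf4 were Sp100 (a nuclear body protein, 0.30), Smim3 (0.33), Plcg1 (phospholipase C gamma 1 of T cell receptor signalling, 0.36), Dtx3 (0.36) and Myo1g (a myosin of blood cells, 0.37). Nearest to Izumo1r were Lbh (0.31), Tspan32 (a tetraspanin, 0.36), Mbnl1 (an RNA splicing factor, 0.43), Itga4 (integrin alpha 4, 0.44) and Ldb1 (a LIM domain binding protein, 0.45). All libraries share the scaling and the difference in pan-T level between groups, so these likenesses are a description.

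Among 28 genes of Foxp3 cofactors and partners, 2 rose and 0 fell on TMM (edgeR adjusted p below 0.05), where 1.37% of all tested genes rose. On pan-T scaling 0 were called higher and 20 of the 28 lower, where 88.4% of all tested genes were called lower. On TMM their median log2 fold change was 0.996, and on pan-T scaling it was -2.02. The rises were those of Gata3, a factor of tissue Tregs and T helper 2 cells (3.33 ± 0.74, SE, adjusted p = 0.0283), and Cbfb, the partner subunit of Runx proteins (2.63 ± 0.64, adjusted p = 0.0426). Cbfb stood at 78.8 ± 50.9 CPM in Tumor and 12.5 ± 10.4 CPM in WT (SD, n = 5 each). On pan-T scaling Gata3 stood at 0.78 ± 0.70 and Cbfb at -0.85 ± 0.88, and neither passed. The count was 0 without any 1 of Tumor replicates 1 to 4 or WT replicates 1 and 3, 1 without Tumor replicate 5 and 2 without any other single library. It was 4 without WT replicates 1 and 2, where 6.40% of all tested genes were called higher. It was 14 without WT replicates 3, 4 and 5, where 2.32% were. With all libraries, DESeq2 called 5 of the 28 higher, limma voom 4 and voom with quality weights 6. These methods called 3.59, 2.12 and 3.13% of all their tested genes higher.

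Of 20 genes known to be higher in Foxp3+ than in Foxp3- CD4 T cells, 9 rose and 0 fell on TMM, with a median of 2.93. Of all tested genes, 1.37% rose and 0.219% fell. Of the 14 pan-T genes, 7 rose and the median was 2.83, close to that of the 20. Among the 20, the 4 with the smallest p were Tnfrsf9, the costimulatory receptor 4-1BB (5.78 ± 0.95, SE, edgeR adjusted p = 0.00612), Tigit, an inhibitory receptor (3.94 ± 0.69, adjusted p = 0.00842), Capg, an actin-capping protein (3.66 ± 0.73, adjusted p = 0.0162), and Tnfrsf4, the costimulatory receptor OX40 (4.20 ± 0.86, adjusted p = 0.0190). Tnfrsf4 averaged 1354 ± 695 CPM in Tumor and 73.7 ± 52.6 CPM in WT (SD, n = 5 each), and on pan-T scaling it had 1.38 ± 0.89 (adjusted p = 0.139). On that scaling 1 of the 20 was called higher, Tnfrsf9, and 4 lower, with a median of 0.01. Of all tested genes, 0.103% were called higher and 88.4% lower on it. On TMM, 2 of the 20 were called higher without any 1 of Tumor replicates 1 to 3 or WT replicate 1, 4 without Tumor replicate 4, and 6 to 10 without any other single library.

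Of 12 tested genes of 14 known to be lower in Foxp3+ than in Foxp3- CD4 T cells, 2 rose and 0 fell on TMM, with a median of 0.78. Of all tested genes, 1.37% rose and 0.219% fell. On pan-T scaling 0 were called higher and 7 of the 12 lower, with a median of -2.47, where 88.4% of all tested genes were called lower. Id2, an inhibitor of helix-loop-helix factors that effector T cells and effector Tregs also use, rose by 3.91 ± 0.79 log2 units (SE, edgeR adjusted p = 0.0181), with 1814 ± 522 CPM in Tumor and 120 ± 82.9 CPM in WT (SD, n = 5 each). Il7r, the IL-7 receptor of naive and memory T cells, rose by 4.21 ± 0.85 (adjusted p = 0.0186). On pan-T scaling they stood at 0.94 ± 0.96 and 1.57 ± 0.83 and did not pass. The count was 0 without any 1 of Tumor replicates 1 to 4 or WT replicate 1, and 2 without any other single library.

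Partners of Ikaros proteins gave no calls on TMM with edgeR and all 10 libraries. Of 17 genes of the NuRD remodelling complex and of corepressors, 0 were called, with a median log2 fold change of 1.08. An unadjusted p below 0.05 was reached by 5 of the 17 (edgeR), all higher in Tumor, and DESeq2 called 1 of the 17 higher. Voom with quality weights called 2 higher. With edgeR, 1 was called higher without WT replicate 2 and 0 without any other single library. That count was 3 without WT replicates 1 and 2, where 6.40% of all tested genes were called higher. It was 1 without WT replicates 3, 4 and 5, where 2.32% were. On pan-T scaling 15 of the 17 were called lower and 0 higher, with a median of -2.36, where 88.4% of all tested genes were called lower. The most abundant on the list were, with TMM values, Chd4, the NuRD ATPase (1.35 ± 0.57, SE, adjusted p = 0.259), and Sin3b, a corepressor scaffold (1.41 ± 0.68, adjusted p = 0.312). Thalidomide analogues degrade Ikaros and Aiolos in human cells through the cereblon ubiquitin ligase. Of 5 genes of this ligase, 0 were called by edgeR (0 at an unadjusted p below 0.05), with a median of 0.88. DESeq2 called 0 of the 5 higher, and voom with quality weights called 1 higher. EdgeR called 2 higher without WT replicates 1 and 2, 1 without WT replicates 3, 4 and 5, and 0 without any single library. On pan-T scaling all 5 were called lower, with a median of -2.52, where again 88.4% of all tested genes were called lower. The most abundant were, with TMM values, Rbx1 (1.36 ± 0.72, adjusted p = 0.361) and Ddb1 (0.88 ± 0.67, adjusted p = 0.521).

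Ligands and co-receptors of neuropilins gave no calls on TMM either. Of 18 tested, 0 were called (edgeR; 1 of 18 at an unadjusted p below 0.05, Sema3b, lower in Tumor; DESeq2 called 0 higher), 3 had positive and 15 negative values, and the median was -0.60, nearer to the median of all genes than to that of the pan-T genes. On pan-T scaling all 18 were called lower, with a median of -3.80, where 88.4% of all tested genes were called lower with a median of -3.48 over all. The most abundant were, with TMM values, Plxna2, a semaphorin co-receptor (-0.48 ± 0.58, SE, adjusted p = 0.703), and Sema3a, a secreted ligand (-0.87 ± 0.57, adjusted p = 0.456). Of the 6 relatives and sperm partner genes of Izumo1r, such as the folate receptor genes, 1 was tested, Izumo4, and it was not called on TMM (edgeR, 0.23 ± 0.64, adjusted p = 0.882) and was called lower on pan-T scaling (-3.33 ± 0.93, adjusted p = 0.00326). Izumo1, the sperm ligand of Juno, averaged 2.34 ± 2.72 CPM in Tumor and 6.33 ± 9.25 CPM in WT (SD, n = 5 each) and was below the filter.

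**Figure D5:**
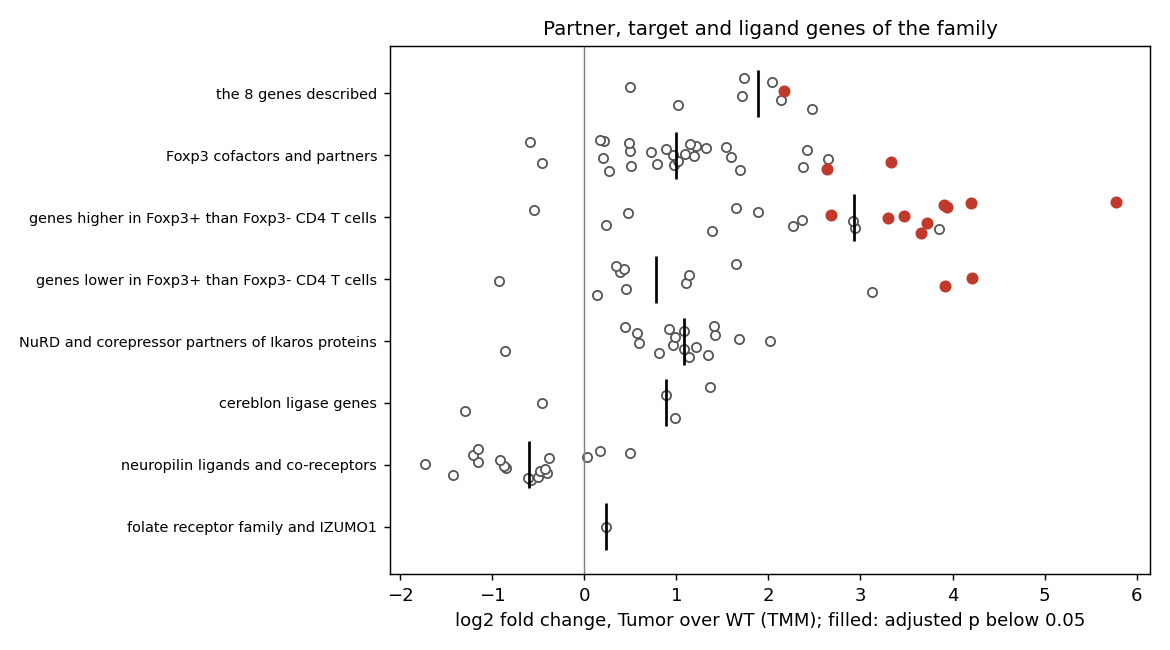
Log2 fold changes, Tumor over WT on TMM scaling, of the 8 genes and of the tested genes of each list; points are genes, spread vertically for display alone, and black lines are list medians. Filled points have an adjusted p below 0.05; the 9 calls among genes higher in Foxp3+ cells lie between 2.68 and 5.78.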

How the data were processed

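RNA was profiled by Smart-seq2, per the labels, in 10 libraries whose group and replicate number came from their titles. The authors deposited raw, whole-number read counts for each gene, made with HISAT2 2.0.5 and featureCounts 1.5.0-p3 on mm10, per the submitters' processing notes. Strand setting, annotation release and the handling of shared reads are not given in the sources used here. The 10 single-sample files equalled the series table. No 2 libraries agreed within sampling noise (over 45 pairs the chi-square was at least 29.8 per degree of freedom), and each counted as 1 sample. Without molecular identifiers, counts include amplification copies.

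Counts were filtered with filterByExpr (minimum count 10, minimum total 15), scaled by TMM and tested with edgeR 4.0.16 in R 4.3.3 (robust quasi-likelihood F test, 2-sided, group as the only term, Benjamini-Hochberg adjustment over 21414 genes, threshold 0.05). The biological coefficient of variation was 86.1%, which limits what 5 libraries per group can show. For the SE of a log2 fold change, its absolute value was divided by sqrt(F). Pan-T scaling replaced library sizes by the geometric mean of 14 T cell genes. Limma 3.58.1 and DESeq2 1.42.0 were alternatives. Gene lengths were as deposited, exon overlaps came from GENCODE M21, and promoter sequences from RefSeq (GRCm38.p6).

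The genes described, the lists and the alternatives were chosen with earlier results of these data known. The rule for named genes took all 8 genes, from each list at most 4 called genes, by p (or, with no call, the 2 most abundant), and the 5 nearest profiles to Foxp3, Ikzf2, Ikzf4 and Izumo1r among protein coding genes averaging 10 CPM or more, leaving out predicted and receptor segment genes. Log2 CPM used a prior count of 2, and CPM of marker genes used library totals. Sema3b was named after its values were seen. Further fits used RLE, upper-quartile and no composition factors, limma voom without and with quality weights, no filter, 10 CPM in 5 libraries, a threshold of 0.01, a replicate block, protein coding genes alone, and libraries left out.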

Additional observations from a re-analysis of the deposited data

Results flagged for a closer look

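In WT replicate 4, Ikzf2 stood at 228 CPM and Nrp1 at 53.9 CPM, each far above the other 4 WT libraries for the size of the group's range. In WT replicate 3, Ikzf4 stood at 44.6 CPM, likewise above the other 4 WT libraries. Such a gap arises by chance in about 1 in 20 groups, and 16 groups (8 genes in 2 groups) were examined. WT replicate 4 had the highest pan-T level of the WT libraries (101 CPM, against 11.1 to 72.3 CPM in the other 4), and the part of that level in the gaps was not tested.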

How the results depend on the processing

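Of the 8 genes, 1 was called higher with all libraries, TMM and edgeR. The count was 4 with DESeq2, 2 (Foxp3 and Ikzf4) with limma voom, without and with quality weights, and with no filter, and 7 without WT replicates 3, 4 and 5. It was 0 with RLE, upper-quartile or no composition factors, with pan-T scaling, with 10 CPM in 5 libraries and at an adjusted p below 0.01. Without single libraries it was 0 to 2. Over all genes 340 were called. That count was 18958 with pan-T scaling, 1651 with DESeq2, 768 with voom and quality weights, 820 with no filter, 1993 without WT replicates 1 and 2, 1325 without WT replicates 3, 4 and 5, 52 at an adjusted p below 0.01, and 65 to 417 without single libraries. Of the calls 86.2% were higher in Tumor on TMM, 41.3% with DESeq2 and 0.116% with pan-T scaling, and the median of all genes moved to -0.38 log2 units with RLE factors, against -0.20 on TMM. With replicate number as a block, 141 genes and 0 of the 8 were called. Same-numbered samples did not deviate together (correlations of -0.126 to 0.0381). The labels state no pairing, and these correlations cannot exclude one, because differences in epithelial RNA and Gm10800 among WT libraries could hide it.

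All 8 values were negative with pan-T scaling, which moves all genes down (median -3.48), run also without WT replicates 1 and 2 and without WT replicates 3, 4 and 5. The last pair of fits was chosen after seeing the data; they called 12167 and 18234 genes, 0 of the 8 higher, and the lower calls of Ikzf5 and Ikzf1 were lost in 1 fit each. In the order of these 3 fits, the log2 fold change was -0.63, -0.80 and -0.32 for Foxp3, -1.71, -2.12 and -0.72 for Ikzf1, -0.96, -0.91 and -1.03 for Ikzf2, and -1.19, -1.14 and -1.26 for Ikzf3. It was -1.02, -0.89 and -1.19 for Ikzf4, -2.51, -1.61 and -3.29 for Ikzf5, -1.20, -1.01 and -1.44 for Nrp1, and -0.83, -0.63 and -1.08 for Izumo1r. The cause of the differences between these fits was not tested. In the fits without pan-T scaling, the values of each of the 8 stayed above 0 wherever it was tested. Ikzf5 was not tested with the filter of 10 CPM in 5 libraries. Low read numbers limit Ikzf5 in both groups and Foxp3 in WT, and shared exons limit both genes.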
